A study of Mus musculus with 6 samples.

Results

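The 10 genes described here build and regulate the MHC class II pathway in mice: Cd74, H2-Aa, H2-Ab1, H2-Eb1, H2-DMa, H2-DMb1, H2-DMb2, H2-Oa, H2-Ob and Ciita. They were taken by symbol from the deposited count table, in which each symbol stood for 1 row, so that 10 of 22183 genes were members and all 10 passed the filter on low counts. RNA sequencing was performed on cells isolated as peritoneal ECs from male wild-type C57BL/6J mice, young adults with no transgene. PD mice (n = 3) received daily intraperitoneal Dianeal, a peritoneal dialysis (PD) fluid with a high glucose content, for 6 weeks, and saline mice (n = 3) received saline in the same way for 6 weeks. Each mouse gave 1 library. The sample labels describe magnetic sorting of CD31+ cells from peritoneal tissue, whereas the study's supplementary methods describe digested mesentery sorted for CD31+ CD45- cells, and the class II genes are read here against markers of both compartments.

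MHC class II molecules carry peptides from endocytosed and lysosomal proteins to the surface of B cells, dendritic cells and macrophages, where CD4+ T cells read them. The alpha and beta chains (H2-Aa with H2-Ab1, and the H2-E chains with H2-Eb1) assemble on the invariant chain Cd74, lysosomal proteases cut Cd74 down, H2-M (H2-DMa with an H2-DMb chain) exchanges its last fragment for peptide, and H2-O (H2-Oa with H2-Ob) holds H2-M back. Ciita does not bind DNA itself but docks on the RFX and NF-Y factors at the X and Y boxes of class II promoters. Interferon-gamma can switch Ciita on in ECs and other cells that otherwise lack class II. C57BL/6 mice carry a defective H2-Ea gene, so they transcribe H2-Eb1 without showing H2-E on the cell surface. H2-Ea was not analysed here.

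The promoters are shown first because Ciita acts at X and Y boxes, and the letters of these boxes were searched for in the members. RefSeq promoter windows on GRCm38.p6, from 250 bases before to 50 bases after each start, were matched by symbol for 7 of the 10 members, in 8 windows, and the motifs were searched on both strands. In 4 members the X-box core AGNAAC stood upstream of the Y box ATTGG on the same strand, 25 to 45 bases apart, an arrangement found in 1.14% of 32851 RefSeq windows of the same length. The stretch from 130 to 31 bases before the start is printed for these 4 members, with the X-box core, the Y box and the Y box read on the other strand (CCAAT) in capitals.
H2-Eb1, chr17:34305737-34305836 (+ strand): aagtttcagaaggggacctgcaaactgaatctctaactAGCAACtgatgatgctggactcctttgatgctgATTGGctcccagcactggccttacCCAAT
H2-Oa, chr17:34092249-34092348 (+ strand): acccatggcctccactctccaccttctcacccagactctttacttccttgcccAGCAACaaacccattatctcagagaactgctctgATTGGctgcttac
H2-Ob, chr17:34238775-34238874 (+ strand): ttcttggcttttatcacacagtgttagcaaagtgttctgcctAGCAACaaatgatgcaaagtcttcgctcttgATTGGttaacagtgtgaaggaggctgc
H2-DMb1, chr17:34153061-34153160 (+ strand): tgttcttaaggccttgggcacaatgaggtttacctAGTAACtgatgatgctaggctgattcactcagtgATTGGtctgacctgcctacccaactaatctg

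The X-box core and the Y box were 33 bases apart in H2-Eb1, 34 in H2-Oa, 34 in H2-DMb1 and 31 in H2-Ob, counted from first base to first base. These 4 genes differ in what they encode: a classical beta chain, both chains of the H2-M inhibitor, and a beta chain of H2-M. In H2-Aa and H2-DMb2 the window held the Y box without the AGNAAC letters upstream of it, as the same stretch shows.
H2-Aa, chr17:34287854-34287953 (− strand): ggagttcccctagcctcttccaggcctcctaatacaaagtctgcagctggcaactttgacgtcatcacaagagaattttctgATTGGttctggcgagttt
H2-DMb2, chr17:34145119-34145218 (+ strand): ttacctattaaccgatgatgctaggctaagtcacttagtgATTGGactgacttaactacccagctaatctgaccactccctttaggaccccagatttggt

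H2-DMb2 and H2-DMb1 are neighbouring copies, and both stretches hold a Y box. Only that of H2-DMb1 holds the exact letters of the X-box core, as AGTAAC, in front of it. At the corresponding place the H2-DMb2 stretch reads attaac, with a mismatch in the second letter. The search took exact letters only, so a box with a changed letter was not counted. For H2-DMa the first of 2 windows held neither motif and the second held a Y box 198 bases before its start and the X-box core letters on the other strand. Those letters also stood once on the other strand in the windows of H2-Oa and H2-DMb1. Alone, the X-box core letters occurred in 48.1% of all windows and the Y box letters in 37.4%, so either motif by itself is common. A match is a match of letters and not a measured binding site.

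Before the comparison, the libraries were checked against the cell type they are labelled with, because the class II genes are leukocyte genes. The endothelial markers were present, with Pecam1, which encodes CD31, between 142 and 150 FPKM in saline mice and between 155 and 164 FPKM in PD mice, and Cdh5, the VE-cadherin gene, between 4.08 and 5.49 FPKM and between 8.07 and 8.78 FPKM. The leukocyte gene Ptprc, which encodes CD45, lay between 601 and 658 FPKM in saline mice and between 388 and 401 FPKM in PD mice. The B cell receptor gene Cd79a lay between 1367 and 1451 FPKM in saline mice and between 599 and 631 FPKM in PD mice. Among the 12 endothelial markers the most abundant was Plvap, at 234 to 302 FPKM in saline mice, below Ptprc, and at 536 to 571 FPKM in PD mice, above it. Per length, Ptprc and Cd79a were above Pecam1 in every library, and the data go against a pure endothelial preparation. The libraries held between 21973426 and 26374292 counts. In bulk samples such as these, fewer cells of a type and less RNA per cell cannot be told apart, which holds for every value below.

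All 10 class II genes fell in PD mice, by between 23.6% and 61.1% of their mean transcript level in saline mice. The 3 largest decreases were in H2-Oa and H2-Ob, the chains of the H2-M inhibitor, and in H2-DMb2, each to about 0.4 of the saline level, with ratios of 0.389, 0.414 and 0.404. Cd74, H2-Ab1, H2-DMa, H2-Aa and Ciita fell by 30.3% to 44.6%, and H2-Eb1 and H2-DMb1 fell by 23.6% and 25.4%. Each of the 10 passed an adjusted p of 0.05 by the quasi-likelihood test of edgeR, Benjamini-Hochberg adjusted over all 14005 genes tested, and in each the 3 PD mice were all below the 3 saline mice. Over all genes tested, 27.8% were called lower, 58.9% were called in either direction, and 31.6% had PD mice all below saline mice. The members' median log2 fold change was −0.75, beside 0.02 over all genes tested. These directions depend on what the libraries are scaled to. Under scaling to B cell markers 7 of the 10 were higher, as were 13185 of all genes tested. The scalings are given further on.

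**Figure D1:**
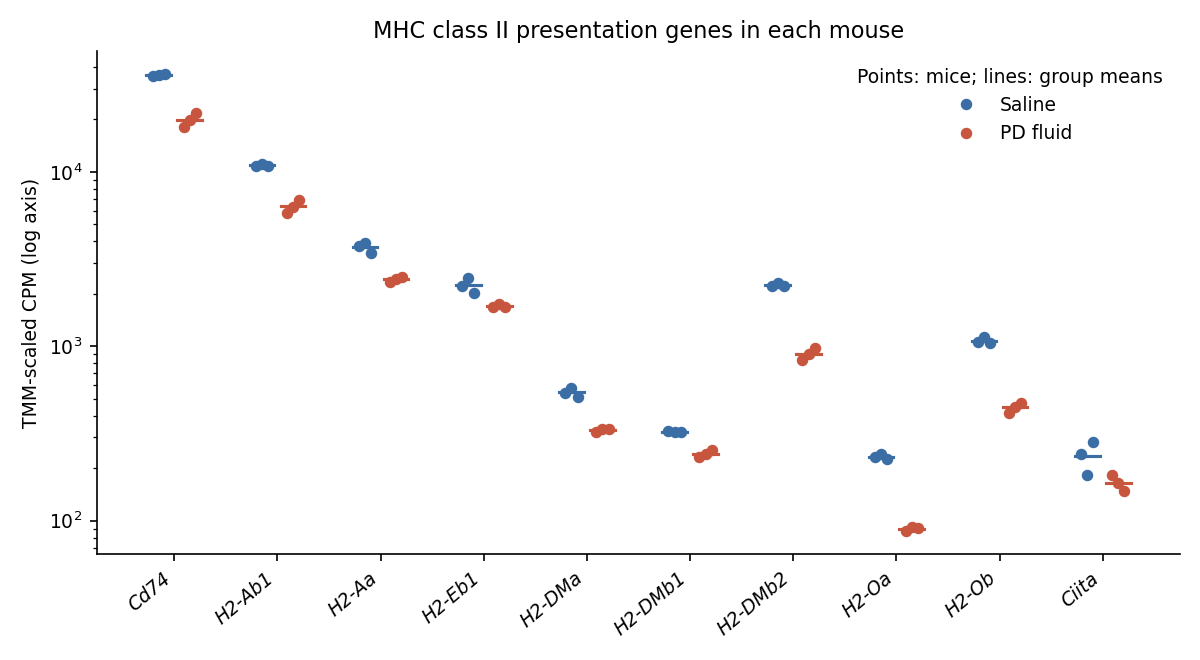
Level of each class II gene in each mouse, as CPM after TMM scaling on a log axis, with saline mice in blue, PD mice in red and a line at each group mean (n = 3 mice per group). In all 10 genes the red points lie below the blue points, with the widest gaps in H2-DMb2, H2-Oa and H2-Ob. The closest approach is in Ciita, at 181.7 in the lowest saline mouse and 181.6 in the highest PD mouse. Scaling to B cell markers turns 7 of the 10 around, and 13185 of all 14005 genes tested are called higher under it.

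Cd74, the invariant chain and chaperone of the class II chains, was the most abundant transcript of the libraries. Its gene lies on chromosome 18 (GRCm38, GENCODE M21, 60803848 to 60812652, plus strand). In library-size units scaled by TMM (CPM, the share of counts multiplied up to a common total), Cd74 stood at 35312, 35820 and 36641 CPM in the saline mice and at 18119, 19742 and 21797 CPM in the PD mice. The saline mice lay within a narrow band and the PD mice were spread more widely, well below it. The mean fell from 35924 ± 671 to 19886 ± 1843 CPM (SD, n = 3), a log2 fold change of −0.85 ± 0.08 (SE, edgeR quasi-likelihood test, Benjamini-Hochberg adjusted p = 6.15e-06). By count, Cd74 ranked first of all genes in each of the 6 mice, and it took 3.58% ± 0.08 (SD, n = 3) of all counts in saline mice and 1.99% ± 0.13 in PD mice.

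H2-Ab1, the beta chain of the H2-A molecule, measured 10863, 11065 and 10814 CPM in the saline mice and 5803, 6270 and 6949 CPM in the PD mice. It changed by −0.78 ± 0.08 on the log2 scale (SE, edgeR quasi-likelihood test, Benjamini-Hochberg adjusted p = 7.95e-06). By count it ranked second of all genes in every saline mouse and between sixth and seventh in the PD mice. H2-Aa, its alpha chain partner, measured 3755, 3933 and 3435 CPM in the saline mice and 2333, 2438 and 2504 CPM in the PD mice. The PD mice were close together and all below the lowest saline mouse, with a log2 fold change of −0.61 ± 0.07 (SE, edgeR quasi-likelihood test, Benjamini-Hochberg adjusted p = 2.55e-05). The ratio of H2-Ab1 to H2-Aa counts, which does not depend on library scaling, was 2.95 ± 0.18 (SD, n = 3) in saline mice and 2.61 ± 0.15 in PD mice. The groups nearly touched, at 2.81 in the lowest saline mouse and 2.78 in the highest PD mouse, and the difference between the chains was not tested.

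H2-Eb1, the beta chain of H2-E, had the smallest decrease of the 10. It measured 2214, 2461 and 2030 CPM in the saline mice and 1688, 1757 and 1679 CPM in the PD mice. The gap between the lowest saline mouse and the highest PD mouse was smaller than the range among the saline mice. Its log2 fold change was −0.39 ± 0.07 (SE, edgeR quasi-likelihood test, Benjamini-Hochberg adjusted p = 0.00112). Against H2-Ab1 in the same library, H2-Eb1 was higher in PD mice, at 0.291, 0.280 and 0.242 counts per H2-Ab1 count, than in saline mice, at 0.204, 0.222 and 0.188. The related chain gene H2-Eb2, which is no member, fell by 0.96 on the log2 scale from a low level of 27.0 ± 1.61 to 13.9 ± 1.35 CPM (SD, n = 3, edgeR quasi-likelihood test, Benjamini-Hochberg adjusted p = 2.90e-05).

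The peptide editor H2-M pairs the alpha chain H2-DMa with either of the beta chains H2-DMb1 and H2-DMb2. H2-DMa measured 540, 580 and 513 CPM in the saline mice and 321, 335 and 334 CPM in the PD mice, a log2 fold change of −0.72 ± 0.06 (SE, edgeR quasi-likelihood test, Benjamini-Hochberg adjusted p = 3.87e-06). H2-DMb1 measured 328, 323 and 322 CPM in the saline mice and 231, 242 and 253 CPM in the PD mice, a change of −0.42 ± 0.06 (SE, edgeR quasi-likelihood test, Benjamini-Hochberg adjusted p = 0.000122). H2-DMb2 measured 2229, 2293 and 2214 CPM in the saline mice and 836, 902 and 983 CPM in the PD mice, a change of −1.31 ± 0.07 (SE, edgeR quasi-likelihood test, Benjamini-Hochberg adjusted p = 6.70e-08). The decreases of the 2 beta chain genes differed in size, with H2-DMb2 losing 59.6% of its level and H2-DMb1 25.4%. Per library, the saline mice held 6.80, 7.10 and 6.87 H2-DMb2 counts per H2-DMb1 count, and the PD mice held 3.61, 3.73 and 3.89. The groups were far apart on this ratio relative to the spread within them, with means of 6.92 ± 0.16 and 3.75 ± 0.14 (SD, n = 3), although 3 mice against 3 allow no exact permutation p under 0.1. The 2 transcripts share 95.3% of 1093 aligned bases, with a longest identical run of 221 bases, so reads from the shared stretches could be counted for either gene. The ratio is therefore uncertain in its absolute size, and the sizes of its change and of the 2 decreases could be affected too.

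H2-O is known mainly from B cells and the thymus, and its chains had the deepest decreases together with H2-DMb2. H2-Oa measured 230, 240 and 224 CPM in the saline mice and 86.8, 92.5 and 91.0 CPM in the PD mice, a log2 fold change of −1.36 ± 0.06 (SE, edgeR quasi-likelihood test, Benjamini-Hochberg adjusted p = 1.96e-08). H2-Ob measured 1057, 1129 and 1045 CPM in the saline mice and 413, 451 and 473 CPM in the PD mice, a change of −1.27 ± 0.07 (SE, edgeR quasi-likelihood test, Benjamini-Hochberg adjusted p = 7.05e-08). Both chains fell by nearly the same factor, and both fell by more than H2-DMa, the chain of the complex that they inhibit. Summed, H2-Oa and H2-Ob gave 2.38, 2.36 and 2.48 counts per H2-DMa count in the saline mice and 1.56, 1.63 and 1.69 in the PD mice, again without overlap.

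**Figure D2:**
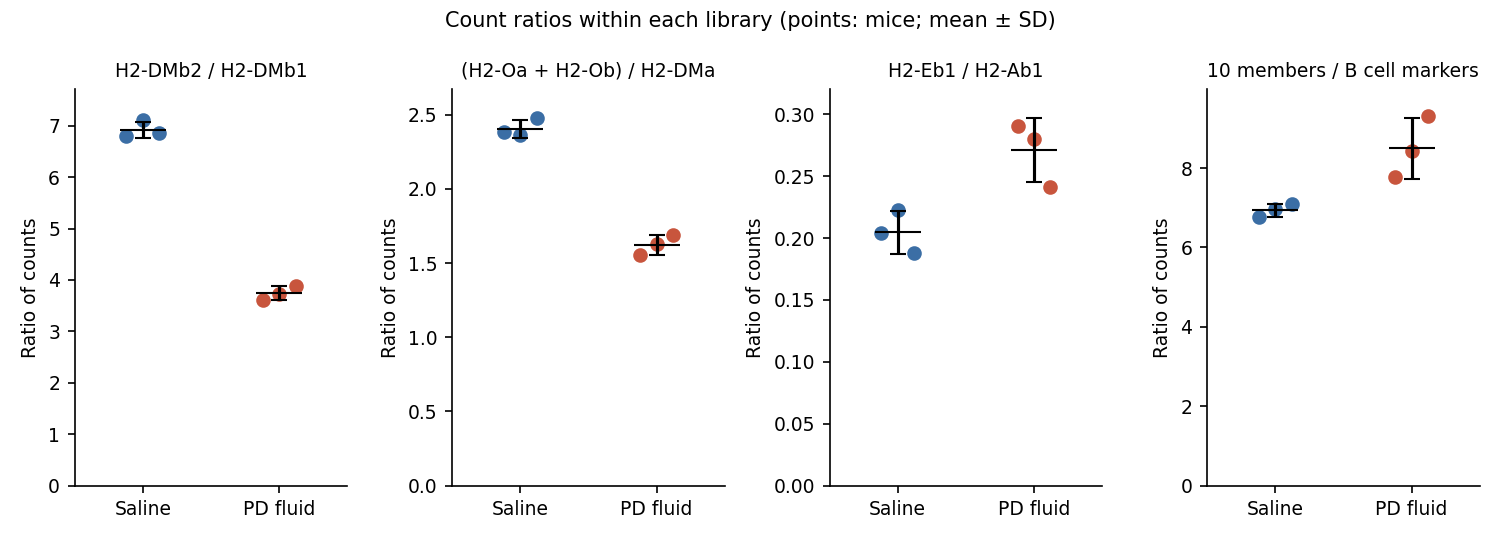
Ratios of counts within each library for 4 pairs: H2-DMb2 to H2-DMb1, H2-Oa and H2-Ob to H2-DMa, H2-Eb1 to H2-Ab1, and the 10 members to the 12 B cell markers, with points for mice and bars for mean ± SD (n = 3 per group), each axis from 0. The first 2 ratios are lower in all PD mice and the last 2 higher, and the library scaling cancels out of all 4.

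Ciita, the transactivator of the class II promoters, was the least abundant member per length and had the widest spread for its mean. It measured 242, 181.7 and 283 CPM in the saline mice and 181.6, 164 and 147 CPM in the PD mice. The saline mice were spread widely. The lowest saline mouse and the highest PD mouse nearly touched, so their order in CPM depends on the scaling. In the deposited FPKM these mice were also close, at 44.3 and 42.6. The mean fell from 236 ± 51.0 to 164 ± 17.1 CPM (SD, n = 3), a log2 fold change of −0.52 ± 0.14 (SE, edgeR quasi-likelihood test, Benjamini-Hochberg adjusted p = 0.00696). With each mouse left out in turn, the log2 fold change of Ciita ranged from −0.67 to −0.37 and the largest adjusted p by the same test was 0.0340. The annotated span of Dexi, on the opposite strand, overlaps an exon of Ciita, and Dexi had 5627 counts over the 6 libraries. That of Brd2, which had 16534 counts, overlaps an exon of H2-DMa. Whether exons of both genes overlap there was not examined. The library protocol is not stated to keep strand, so any reads that both genes share cannot be told apart. Exons of H2-Eb1, H2-Oa and Cd74 overlap the spans of Gm20513, BC051537 and Mir5107, which were not analysed here.

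The members other than Cd74 and Ciita lie within 1 stretch of chromosome 17 on GRCm38 (GENCODE M21), in the order H2-Oa (34092340 to 34095234), H2-DMa (34119541 to 34139101), H2-DMb2 (34143307 to 34151555), H2-DMb1 (34153072 to 34160230), H2-Ob (34238903 to 34254414), H2-Ab1 (34257689 to 34269419), H2-Aa (34282744 to 34287823) and H2-Eb1 (34305867 to 34316674). H2-Aa is on the minus strand and the other 7 are on the plus strand. Ciita lies on chromosome 16 (10480059 to 10528418, plus strand). Position did not order the size of the decreases: H2-DMb2 and H2-DMb1, which are adjacent, had log2 fold changes of −1.31 and −0.42, whereas H2-Oa and H2-Ob, at a distance from each other, had −1.36 and −1.27.

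Levels of different genes were compared per length, by the FPKM values that the authors deposited. In saline mice the order of mean FPKM was Cd74 (28757 ± 675, SD, n = 3), H2-Ab1 (8982 ± 32.9), H2-Aa (3278 ± 198), H2-Eb1 (1662 ± 145), H2-DMb2 (1571 ± 16.1), H2-DMa (472 ± 25.5), H2-Ob (425 ± 13.6), H2-DMb1 (230 ± 3.06), H2-Oa (212 ± 5.33) and Ciita (57.1 ± 11.9). The values of the saline mice overlapped for 1 pair of neighbours, H2-Eb1 and H2-DMb2. In PD mice the mean FPKM had the same order, from 15940 ± 1054 (SD, n = 3) for Cd74 to 36.9 ± 5.39 for Ciita. There H2-Eb1 (1270 ± 50.1 FPKM) no longer overlapped with H2-DMb2 (638 ± 34.6 FPKM), and the overlapping neighbours were H2-Ob (178 ± 7.71 FPKM) and H2-DMb1 (173 ± 3.06 FPKM). Cd74, H2-Ab1 and H2-Aa were above every editor chain and Ciita in FPKM in each mouse, whereas H2-Eb1 was below H2-DMb2 in 1 saline mouse. With CPM divided by the length of all merged exons in place of FPKM, 4 of 10 members kept their place in the saline order.

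Together the 10 genes took 5.67%, 5.73% and 5.77% of all counts in the saline mice and 3.09%, 3.25% and 3.44% in the PD mice. The groups did not overlap, and the mean share fell by 2.46 percentage points, a value given as a description since the members were chosen with earlier results known.

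The direction of 7 members depends on the reference against which they are read, and 3 marker lists were used in turn to scale the libraries. Scaled to 12 endothelial markers, all 10 members were lower in PD mice, with log2 fold changes from −2.15 to −1.18. Scaled to 8 pan-leukocyte markers, 7 members were lower, and H2-DMb1 (−0.03), H2-Eb1 (0.01) and Ciita (−0.13) were not called, with adjusted p of 0.736, 0.899 and 0.464 in the same edgeR quasi-likelihood test, Benjamini-Hochberg adjusted. Scaled to 12 B cell markers, 7 members were higher, H2-DMb2 and H2-Oa were lower, and H2-Ob was not called. The 7 were H2-Eb1 (0.72), H2-DMb1 (0.69), Ciita (0.59), H2-Aa (0.50), H2-DMa (0.39), H2-Ab1 (0.33) and Cd74 (0.26 on the log2 scale). Of the 14005 genes tested, 9390, 731 and 38 were called lower under the endothelial, pan-leukocyte and B cell scaling, and 1520, 8001 and 13185 higher. The members that stayed below 0 under every scaling were the 2 chains of H2-O and H2-DMb2.

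These scalings move the whole transcriptome: the median log2 fold change of all genes was −0.77, 0.41 and 1.13 under the endothelial, pan-leukocyte and B cell scaling. A scaling shifts all genes alike, so the distance of the members' median from that of all genes, −0.77 under TMM, is set by the data only once and carries over to each scaling.

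**Figure D3:**
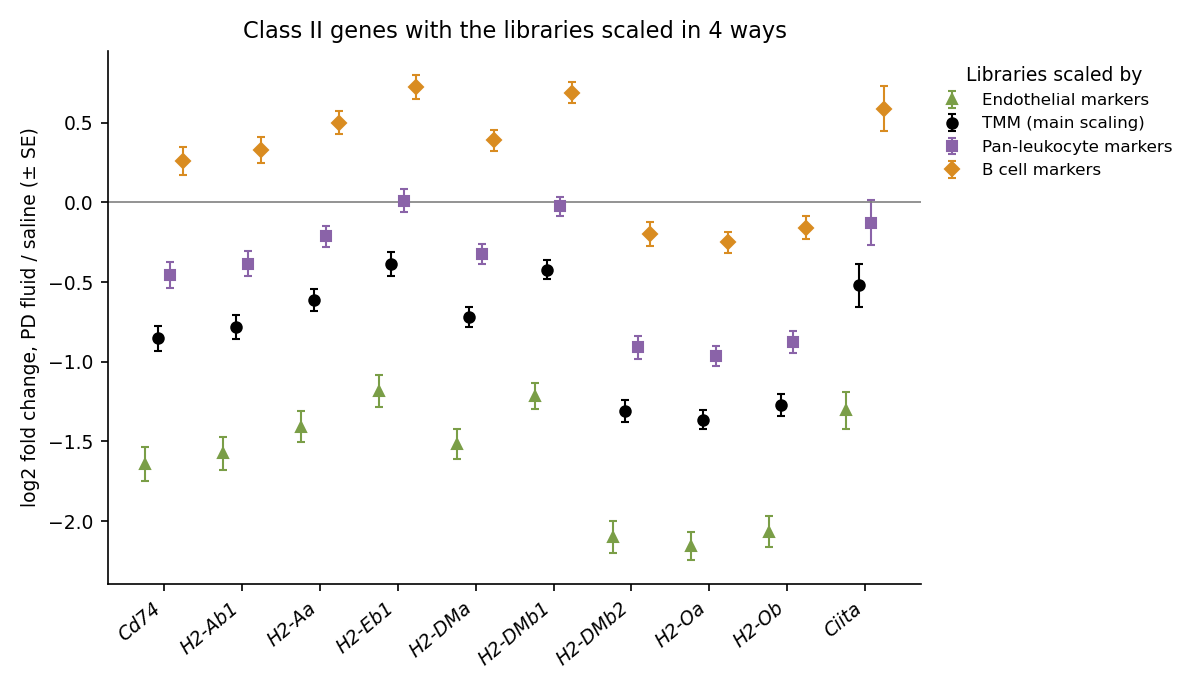
Log2 fold change of PD over saline mice for each class II gene (± SE, n = 3 mice per group) with the libraries scaled by TMM (black circles) or to the summed counts of endothelial (green triangles), pan-leukocyte (purple squares) or B cell markers (orange diamonds). All 10 genes are below 0 under TMM and endothelial scaling, 9 under pan-leukocyte scaling with H2-Eb1 at 0.01, and only H2-DMb2, H2-Oa and H2-Ob under B cell scaling.

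Markers of several leukocytes moved with treatment beside the members, and their part in the decrease of class II was not tested. Of 12 B cell markers, 11 fell and Spib was not called, with a median log2 fold change of −1.14, and their summed level was 8104 to 8384 CPM in the saline group and 3786 to 3861 CPM in the PD group. Of 8 pan-leukocyte markers, 7 fell and Laptm5 rose, with a median of −0.46 and sums of 8847 to 9204 CPM and 6877 to 6927 CPM. Macrophage markers went the other way: all 13 rose, with a median of 2.03, from 2677 to 2824 CPM summed in saline mice to 11056 to 11973 CPM in PD mice. Of 10 dendritic cell markers, 7 rose, Ccr7 fell and 2 were not called, with a median of 0.64 and sums of 665 to 697 CPM and 691 to 722 CPM. Of 12 endothelial markers, 11 rose and Pecam1 was not called, with a median of 0.96 and sums of 1578 to 1703 CPM and 2807 to 2913 CPM. No marker in the B cell, pan-leukocyte, macrophage, dendritic cell and endothelial lists was at the floor of 3 counts in every mouse of a group. Plasma cell markers were mixed, with 5 of 7 higher, Mzb1 lower and Tnfrsf17 not called (median 0.57). Of 10 T and NK cell markers 5 fell and 2 rose (median −0.18). Markers of neutrophils (4 of 5 tested, median 3.26), mesothelium (6 of 6, 3.61), fibroblasts (6 of 6, 3.29), pericytes and smooth muscle (6 of 6, 1.48) and lymphatic endothelium (5 of 5, 2.39) rose. Beside these, 10 of 10 pancreatic acinar markers rose, from 2.34 to 5.95 CPM summed in saline mice to 10099 to 10959 CPM in PD mice.

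Set against these lists in the same library, the members' summed counts were 6.94 ± 0.16 (SD, n = 3) per B cell marker count in saline mice and 8.50 ± 0.77 in PD mice, higher in all 3 PD mice. Against pan-leukocyte markers the members went from 6.33 ± 0.17 to 4.72 ± 0.39, and against dendritic cell markers from 84.5 ± 2.93 to 46.1 ± 2.67. In that list Ccr7, also a gene of B and T cells, made up 77.2% of the summed counts in saline mice and 59.8% in PD mice. Against the other 9 dendritic cell markers, a comparison added after the values were seen, the members went from 371 ± 8.96 to 115 ± 1.51. Against macrophage markers they went from 20.9 ± 0.54 to 2.82 ± 0.11. None of these ratios overlapped between the groups. In every PD mouse the members' sum was higher per B cell marker count and lower per marker count of the other 3 lists. The sum weighs abundant genes most: in saline mice Cd74 took a mean of 3.58% of all counts, and all members together 5.72%. In PD mice these means were 1.99% and 3.26%. Gene by gene under B cell scaling, 7 members were called higher. H2-Oa (−0.25), H2-DMb2 (−0.20) and H2-Ob (−0.16 on the log2 scale, not called) went the other way.

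**Figure D4:**
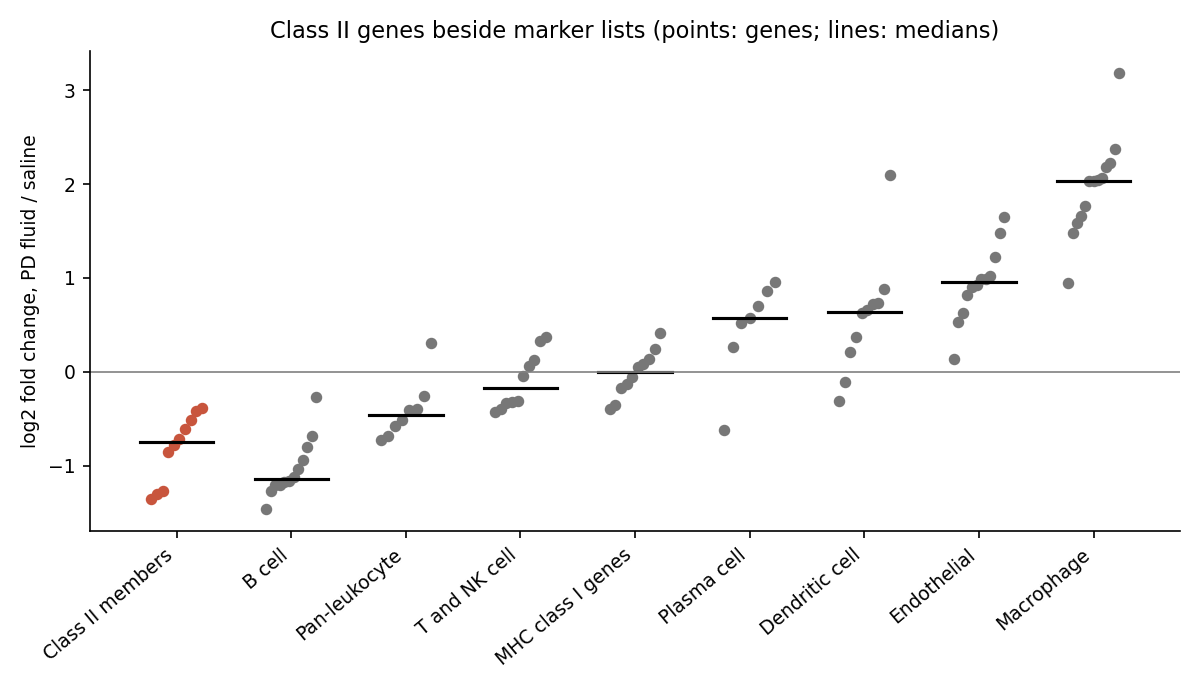
Log2 fold change of PD over saline mice under TMM scaling for each class II gene (red) and each gene of 8 other lists (grey), with a line at the median of each list. The class II genes, with a median of −0.75, lie between the B cell markers (−1.14) and the pan-leukocyte markers (−0.46), while macrophage (2.03) and endothelial markers (0.96) are higher. Scaling to B cell markers turns 7 of the 10 class II genes around, and 13185 of all 14005 genes tested are called higher under it.

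The other genes of the pathway did not share 1 direction. Of 33 genes taken from lists by their role, 11 rose, 14 fell and 8 were not called under TMM scaling, with a median log2 fold change of 0.04. Over all 14005 genes tested, 4359 rose, 3887 fell and 5759 were not called. Fewer fell (4) and more rose (17) under pan-leukocyte scaling, where 731 of all genes tested fell and 8001 rose. Under B cell scaling 32 rose, as did 13185 of all genes tested. The directions of this section are therefore those under TMM scaling. Among the 7 factors that bind class II promoters, 5 fell and none rose. Rfxank and Rfx5, subunits of the RFX complex at the X box, fell by 0.54 and 0.52 on the log2 scale (edgeR quasi-likelihood test, Benjamini-Hochberg adjusted p = 0.000462 and 0.000510), from 42.5 ± 2.39 to 29.2 ± 2.31 CPM and from 70.5 ± 5.90 to 49.2 ± 3.97 CPM (SD, n = 3). Nfyc, a subunit of the Y box factor NF-Y, fell by 0.36 (same test, adjusted p = 0.00719). Rfxap, the third subunit of RFX, had a log2 fold change of −0.10 and Nfya one of 0.09, neither called.

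Endolysosomal genes make and trim the peptides that class II molecules carry. Of 7 genes for endolysosomal processing, 6 rose and Ifi30, the reductase that opens disulfide bonds of antigens, was not called (log2 fold change 0.04). The proteases Ctsl, Ctsd and Ctsb rose by 1.95, 1.88 and 1.60 on the log2 scale, with Ctsb going from 1093 ± 25.7 to 3308 ± 105 CPM (SD, n = 3, edgeR quasi-likelihood test, Benjamini-Hochberg adjusted p = 4.24e-09). Ctss, the protease that cuts the invariant chain in B cells and dendritic cells, rose by less, from 950 ± 91.7 to 1207 ± 61.5 CPM (SD, n = 3), a log2 fold change of 0.35 ± 0.08 (SE, edgeR quasi-likelihood test, Benjamini-Hochberg adjusted p = 0.00277). Sppl2a, the intramembrane protease that clears the last Cd74 fragment, rose by 0.33 (same test, adjusted p = 0.0142). Thus Cd74 fell under this scaling while Ctss and Sppl2a, the genes named here for cutting it, rose. The macrophage markers rose as well, by a median of 2.03, while the B cell markers fell. The part of such shifts in the protease values was not tested.

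Of the 3 genes for surface turnover, Marchf1, a ubiquitin ligase that removes class II from the surface, fell by 0.62, and Cd83, which opposes it, fell by 0.56. Marchf8, the broadly expressed relative of Marchf1, rose by 1.36 from a low level of 8.77 ± 2.22 CPM (SD, n = 3). Of 7 co-stimulatory and co-inhibitory ligands, Cd40 (−0.75), Icosl (−0.70) and Pdcd1lg2 (−0.43) fell, Cd80 rose (1.16) from 4.07 ± 0.49 to 9.08 ± 0.13 CPM (SD, n = 3), and Cd86, Cd274 and Tnfsf4 were not called. Among the genes that lead from interferon-gamma to Ciita, Ifng itself was low in both groups, at 3.03 ± 0.53 and 3.56 ± 0.77 CPM (saline, then PD mice, SD, n = 3), with no call (log2 fold change 0.22 ± 0.24, SE). Socs1, a feedback inhibitor of the pathway, rose by 1.08, the receptor chain Ifngr1 by 0.71 and the transcription factor Irf1 by 0.47, while the kinases Jak1 and Jak2 fell by 0.35 and 0.30 on the log2 scale.

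**Figure D5:**
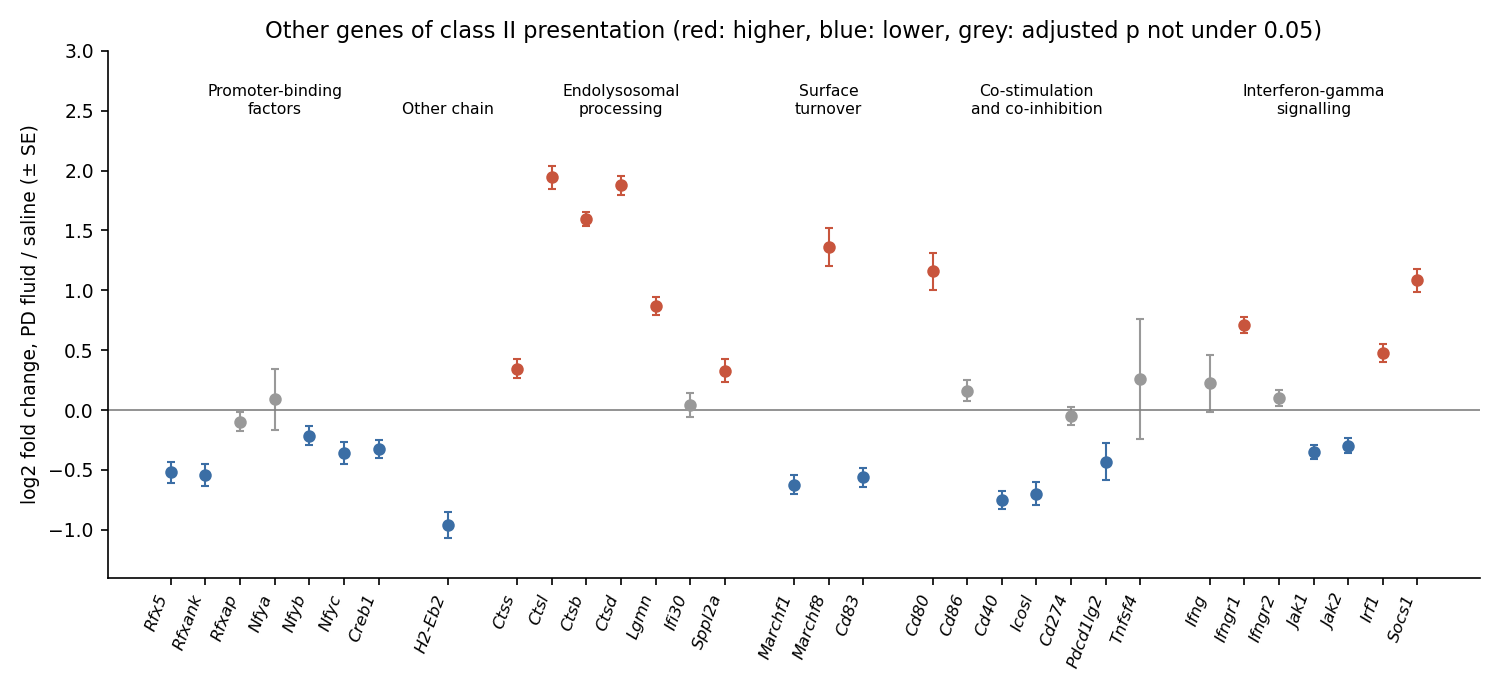
Log2 fold change of PD over saline mice under TMM scaling (± SE, n = 3 mice per group) for 32 of the 33 other genes of class II presentation, grouped by role, with genes called higher in red, called lower in blue and not called in grey. The promoter-binding factors hold 5 blue points and no red one and the endolysosomal genes 6 red points and no blue one. Under B cell scaling 32 of all 33 are called higher, as are 13185 of all 14005 genes tested.

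MHC class I molecules present peptides from the cytosol, and their genes were measured in the same libraries. Of 10 class I genes, 2 rose, 3 fell and 5 were not called, with a median log2 fold change of −0.0031 under TMM scaling. Among all 14005 genes tested, 4359 rose, 3887 fell and 5759 were not called. H2-K1 was not called (0.09), H2-D1 rose by 0.24, and Nlrc5, the class I counterpart of Ciita, rose by 0.41 from 65.5 ± 13.7 CPM in the saline group (SD, n = 3, edgeR quasi-likelihood test, Benjamini-Hochberg adjusted p = 0.0406). Of the immunoproteasome subunits, Psmb9 fell by 0.40, Psmb8 by 0.36 and Psmb10 by 0.18. The Nlrc5 values overlapped between the groups, at 71.7, 49.8 and 74.9 CPM in the saline mice and 105, 82.5 and 74.0 CPM in the PD mice. Those of Ciita nearly touched under the same scaling, at 181.7 CPM in the lowest saline mouse and 181.6 CPM in the highest PD mouse.

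The mean centred profile of Cd74, H2-Aa, H2-Ab1 and H2-Eb1 in log2(CPM + 1) served as a reference. Genes that passed the filter were ordered by the root mean square difference of their own profile from it over the 6 mice. The genes that make up the reference came at places 33 (H2-Aa), 306 (H2-Ab1), 892 (Cd74) and 1724 (H2-Eb1). The genes nearest to this mean are therefore not those nearest to each of them. The 10 nearest were Ero1b (0.0104), Ms4a4b (0.0163), BC004004 (0.0225), Ddx41 (0.0235), Trnt1 (0.0239), Crbn (0.0243), Ddx39a (0.0246), Bin1 (0.0264), Ptprc (0.0270) and Mzb1 (0.0284). Ptprc is the CD45 gene and also a pan-leukocyte marker. Ero1b, an oxidase of the endoplasmic reticulum, measured 136, 140 and 130 CPM in the saline mice and 81.4, 85.8 and 90.7 CPM in the PD mice. Of the members, H2-Aa (0.0387) and H2-DMa (0.0448) were nearest to this mean profile, while H2-Ob (0.307), H2-DMb2 (0.327) and H2-Oa (0.348) were farthest, since their decreases were deeper. With 6 mice in 2 groups, any gene with a decrease of similar size comes out near by this measure.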

How the data were processed

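Total RNA of the sorted cells was enriched for mRNA with oligo(dT) beads, prepared with the NEBNext Ultra kit and sequenced on an Illumina NovaSeq instrument. The submitters' processing notes name fastp 0.18.0, Bowtie2 2.2.8, HISAT2, StringTie 1.3.1 and RSEM without saying which made which column, and the genome build and annotation are not given in the sources used here. The authors deposited whole-number read counts per gene and mouse without normalization, which may be rounded RSEM estimates, and FPKM values per mouse, which were used here only to compare levels between genes. The deposited table also holds the authors' mean FPKM, log2 ratio and p-value for each gene, which were not used. Of 22183 genes, 4492 had no counts. Every column of sample values matched a sample.

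Counts were filtered with filterByExpr of edgeR 4.0.16 under R 4.3.3, leaving 14005 genes, and scaled by TMM, edgeR's trimmed-mean scaling of library sizes. PD mice were compared with saline mice by the edgeR quasi-likelihood test without covariates. P-values were adjusted by Benjamini-Hochberg over all genes tested, and a gene was called when its adjusted p was under 0.05. The alternatives also used limma 3.58.1 and DESeq2 1.42.0, and Python 3.11.15 with pandas 2.3.3 served for tables. The scripts were tested on simulated data. A floor of 3 counts per mouse was set for a gene's detection, with counting error only in view, in libraries of 21973426 to 26374292 counts. The labels do not say that the mice of a group were kept apart beyond the numbered samples, so p-values measure the spread between these samples. Replicates of a group differed by more than sampling noise. Samples were grouped by the treatment in their labels.

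The members, the gene lists and the marker lists were chosen with earlier results of these data known. The genes named are the 10 members, up to 3 called genes a list and direction, the genes that define a step of the pathway, other genes of a list named after their values were seen to complete its count, and the 10 genes nearest in profile. Alternatives were a replicate block, testing without the low-count filter, DESeq2 and limma-voom as other tools, scaling to endothelial, pan-leukocyte or B cell markers, and leaving out each mouse in turn. Positions are from GENCODE M21 on GRCm38 and promoter sequences from RefSeq on GRCm38.p6. Promoters of H2-Ab1, Cd74 and Ciita and protein sequences were not analysed here. The result of 1 gene of the pathway lists is not reported here.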

Additional observations from a re-analysis of the deposited data

How the results depend on the processing

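Without marker scaling, all 10 members stayed lower in PD mice and past the adjusted p threshold of 0.05 under each of 10 alternatives, which were the replicate block, testing without the low-count filter, DESeq2 or limma-voom, and leaving out each of the 6 mice. The largest adjusted p was 0.0340, for Ciita with a mouse left out. The replicate numbers were not treated as pairs. Same-numbered mice had deviation correlations of 0.184, 0.065 and −0.272, and mice of different number had −0.408 to 0.355. With 3 mice a group these values cannot settle whether mice were paired. With the replicate block 7909 genes were called in place of 8246. Scaling to B cell markers called 13223 genes. With endothelial, pan-leukocyte and B cell scaling, 9390, 731 and 38 genes were lower and 1520, 8001 and 13185 higher, against 3887 and 4359 under TMM. Pathway genes called lower numbered 24, 4 and 0, and those called higher 5, 17 and 32, against 14 and 11. Under B cell scaling 2 members were lower and 7 higher, and the log2 fold changes reversed to 0.26 (Cd74), 0.50 (H2-Aa), 0.33 (H2-Ab1), 0.72 (H2-Eb1), 0.39 (H2-DMa), 0.69 (H2-DMb1) and 0.59 (Ciita). Under pan-leukocyte scaling H2-Eb1 stood at 0.0113 and was not called, and H2-DMb1 (−0.03) and Ciita (−0.13) lost their calls, as H2-Ob did under B cell scaling (−0.16). These shifts follow from the markers' own changes, which set the scale. In alternatives chosen after seeing the data, the log2 change of the members' ratio to dendritic cell markers was −1.70 without Ccr7 against −0.88 with it, and that to macrophage markers −2.93 without Lyz2 against −2.89 with it. The order of levels kept 4 of 10 places with another length. With 3 mice a group, each on 1 library of a mixed preparation, levels per cell cannot be had from these data.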
